A study of Mus musculus with 9 samples.

Results

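The genes of the kainate receptors and their Neto proteins are described here in the mouse hippocampus. The 7 members were chosen by name: Grik1, Grik2, Grik3, Grik4 and Grik5, which encode the receptor subunits, and Neto1 and Neto2, which encode the auxiliary proteins. All 7 were among the 54532 genes listed in the deposited expression tables, and all 7 passed the filter on low values in each comparison. Total RNA of the hippocampus was sequenced in 9 samples, 3 in each of 3 groups of wild-type C57BL/6 mice that were labelled male and were 6 to 8 weeks old at the start. Con mice ate a standard diet for 8 weeks. HMD mice ate a high-methionine diet, which raises homocysteine, for 8 weeks. Bet+HMD mice ate the same high-methionine diet for 8 weeks and were then given betaine at 2.5% (w/v) in their drinking water for 2 weeks. Betaine donates the methyl group that turns homocysteine back into methionine. The labels do not say whether a sample was 1 animal or a pool, so the p-values measure the spread between these samples. The strain field of the Bet+HMD samples reads C57BL/6, C57BL/7 and C57BL/8, and the study's methods name female mice. In all 9 libraries of the later table the Y-linked gene Ddx3y was at 12.7 to 21.2 FPKM and Xist at no more than 0.0449 FPKM.

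Kainate receptors are glutamate-gated cation channels made of 4 subunits. GluK1, GluK2 and GluK3, the products of Grik1, Grik2 and Grik3, can form channels by themselves, whereas GluK4 and GluK5, the products of Grik4 and Grik5, bind glutamate with high affinity and need a partner from the first set. Neto1 and Neto2 are membrane proteins that attach to the receptor and slow the decay of its current. In the hippocampus these receptors are best known at the synapse of dentate granule cell mossy fibres on CA3 pyramidal cells, where they act on both sides of the synapse, and on interneurons, many of which use GluK1.

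Levels are FPKM, which are fragments divided by the length of the gene and by the size of the library. The authors deposited 2 tables of them: an earlier one with the Con and HMD libraries, and a later one that repeats these 6 libraries and adds the 3 of Bet+HMD. The diet comparison was made in the former, and both comparisons that involve Bet+HMD were made in the latter. The FPKM values gave back whole reads, and 16031464 to 18566712 reads were assigned to genes per library over both tables. Of these, Grik1 held 163 to 325 reads per library, the fewest of the members, and Grik5 held 2980 to 4734. Betaine was given after the weeks of diet, so a difference in age or time at sampling and the effect of betaine cannot be told apart. The Bet+HMD libraries occur in the later table alone, so the same holds for a difference in preparation or sequencing. They also stood apart as libraries: 25315 to 25663 genes had at least 1 read in Bet+HMD, against 20816 to 23272 in Con and HMD, and their FPKM values summed to 249135 to 258514, against 288439 to 307899. The subfield markers were present in all libraries of the later table, with a summed level of 72.6 to 108 FPKM for the CA1 list, 40.8 to 73.5 FPKM for the CA3 list and 44.5 to 58.6 FPKM for the dentate granule cell list, and none of these markers was at 0 in any library. In a bulk sample, fewer cells of a type and less RNA per cell cannot be told apart.

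The members lie on separate chromosomes, at the positions that the deposited tables give on GRCm38. Grik1 (ENSMUSG00000022935) spans 87895900 to 88290265 on the minus strand of chromosome 16, Grik2 (ENSMUSG00000056073) spans 49094833 to 49788766 on the minus strand of chromosome 10, and Grik3 (ENSMUSG00000001985) spans 125490700 to 125714173 on the plus strand of chromosome 4. Grik4 (ENSMUSG00000032017) spans 42518135 to 42944493 on the minus strand of chromosome 9, Grik5 (ENSMUSG00000003378) spans 25009849 to 25072346 on the minus strand of chromosome 7, and Neto2 (ENSMUSG00000036902) spans 85636588 to 85700924 on the minus strand of chromosome 8. Neto1 (ENSMUSG00000050321) is on the plus strand of its chromosome. These are long genes: their spans run from 62.5 kb for Grik5 and 64.3 kb for Neto2 to 426 kb for Grik4 and 694 kb for Grik2, most of it intron, while the gene models used for FPKM hold 3531 bases for Neto1 to 13246 bases for Grik2. Of the genes that overlap Grik2, Grik3, Grik4 and Neto2 and were in the tables, none had more than 12 reads in a library, and no gene overlaps Grik1 or Grik5. An antisense gene that overlaps Neto1 was not analysed here, and since no source says that strand entered the counting, reads of the pair could not be told apart.

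The 250 bases before the RefSeq start site are shown for Grik2 and Grik3, 2 subunit genes that were higher in Bet+HMD. They are also shown for the 2 high-affinity subunit genes, which did not pass the test. Grik1, which was higher in Bet+HMD as well, had no such window to show, and the windows of the Neto genes are left out. Each reads 5′ to 3′ on the strand of the gene, from RefSeq on GRCm38.p6, with GC boxes (GGGCGG on either strand, a motif bound by Sp1) in capitals. The Grik2 window is chr10:49788755-49789004 on the minus strand, the Grik3 window is chr4:125490446-125490695 on the plus strand, the Grik4 window is chr9:42944372-42944621 on the minus strand and the Grik5 window is chr7:25072370-25072619 on the minus strand.
Grik2: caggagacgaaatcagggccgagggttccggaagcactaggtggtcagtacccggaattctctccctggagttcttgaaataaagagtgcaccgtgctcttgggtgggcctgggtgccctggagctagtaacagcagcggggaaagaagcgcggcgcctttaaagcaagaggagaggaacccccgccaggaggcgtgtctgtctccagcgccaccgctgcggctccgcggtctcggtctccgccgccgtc
Grik3: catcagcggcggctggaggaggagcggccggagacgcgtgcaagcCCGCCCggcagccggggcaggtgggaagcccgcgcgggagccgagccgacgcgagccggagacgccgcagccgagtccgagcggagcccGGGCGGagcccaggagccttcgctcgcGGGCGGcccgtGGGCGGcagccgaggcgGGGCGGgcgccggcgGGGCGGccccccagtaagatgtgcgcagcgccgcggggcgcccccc
Grik4: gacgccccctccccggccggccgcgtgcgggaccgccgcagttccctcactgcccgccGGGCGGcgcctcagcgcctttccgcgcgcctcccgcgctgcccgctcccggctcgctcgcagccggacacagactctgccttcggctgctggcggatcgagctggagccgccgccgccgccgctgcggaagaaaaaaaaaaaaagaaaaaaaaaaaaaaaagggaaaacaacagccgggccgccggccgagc
Grik5: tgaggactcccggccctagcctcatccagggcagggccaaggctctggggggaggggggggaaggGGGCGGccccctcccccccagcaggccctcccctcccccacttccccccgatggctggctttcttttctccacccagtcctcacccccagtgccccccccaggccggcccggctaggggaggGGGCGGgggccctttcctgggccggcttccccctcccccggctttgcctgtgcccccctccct
All 4 windows were richer in G and C than the median of 52.4% over 32851 RefSeq windows of 250 bases, with 62.8% in Grik2, 82.0% in Grik3, 69.6% in Grik4 and 75.2% in Grik5. CpG dinucleotides numbered 20 in Grik2, 42 in Grik3, 36 in Grik4 and 8 in Grik5, where the median window holds 6. The Grik3 window held 6 GC boxes, the Grik5 window 2, the Grik4 window 1 and the Grik2 window 0, and 32.7% of all windows hold at least 1. The letters of the cyclic AMP response element (TGACGTCA, in 1.55% of all windows) and of the TATA box (TATAAA, in 12.4%), each searched on both strands, were in none of the 4. Among these 4 windows, those of Grik3 and Grik2 held the largest and the smallest number of GC boxes. The part of the promoter sequence in the levels was not tested.

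The order of the members' levels is given first, in FPKM of the later table, which is per length of the gene model. The order between genes rests on that length, and the length of the transcripts present was not examined. In reads, Grik2 held 1133 to 1493 per Con library and Grik4 held 713 to 1075, the opposite of their order in FPKM. In Con, Neto1 was at 40.8 ± 4.46 FPKM (SD, n = 3) and Grik5 at 40.7 ± 8.24 FPKM, and their libraries overlapped. Neto2 followed at 12.9 ± 5.16 FPKM and Grik4 at 8.88 ± 1.34 FPKM, again with overlapping libraries. Grik3 at 5.77 ± 0.570 FPKM and Grik2 at 5.53 ± 0.635 FPKM came next and overlapped each other but not Grik4. Grik1 was the lowest, at 1.80 ± 0.196 FPKM, below every library of Grik2. The main high-affinity subunit gene and the main Neto gene were thus listed several times higher than the genes of GluK1, GluK2 and GluK3. In HMD the means were 42.6 ± 7.80 FPKM for Grik5, 39.9 ± 6.18 FPKM for Neto1, 14.3 ± 3.47 FPKM for Neto2, 7.65 ± 0.657 FPKM for Grik4, 5.49 ± 0.646 FPKM for Grik3, 5.26 ± 0.540 FPKM for Grik2 and 1.64 ± 0.0827 FPKM for Grik1. Grik5 overlapped Neto1, and Grik3 overlapped Grik2, as in Con, while Neto2 lay above Grik4 in every HMD library. In Bet+HMD the order of Grik3 and Grik4 was the opposite: Grik3 was at 8.76 ± 0.149 FPKM, with no overlap with Grik4 at 8.27 ± 0.137 FPKM, and Grik2 at 8.13 ± 0.573 FPKM overlapped Grik4 but not Grik3.

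**Figure D1:**
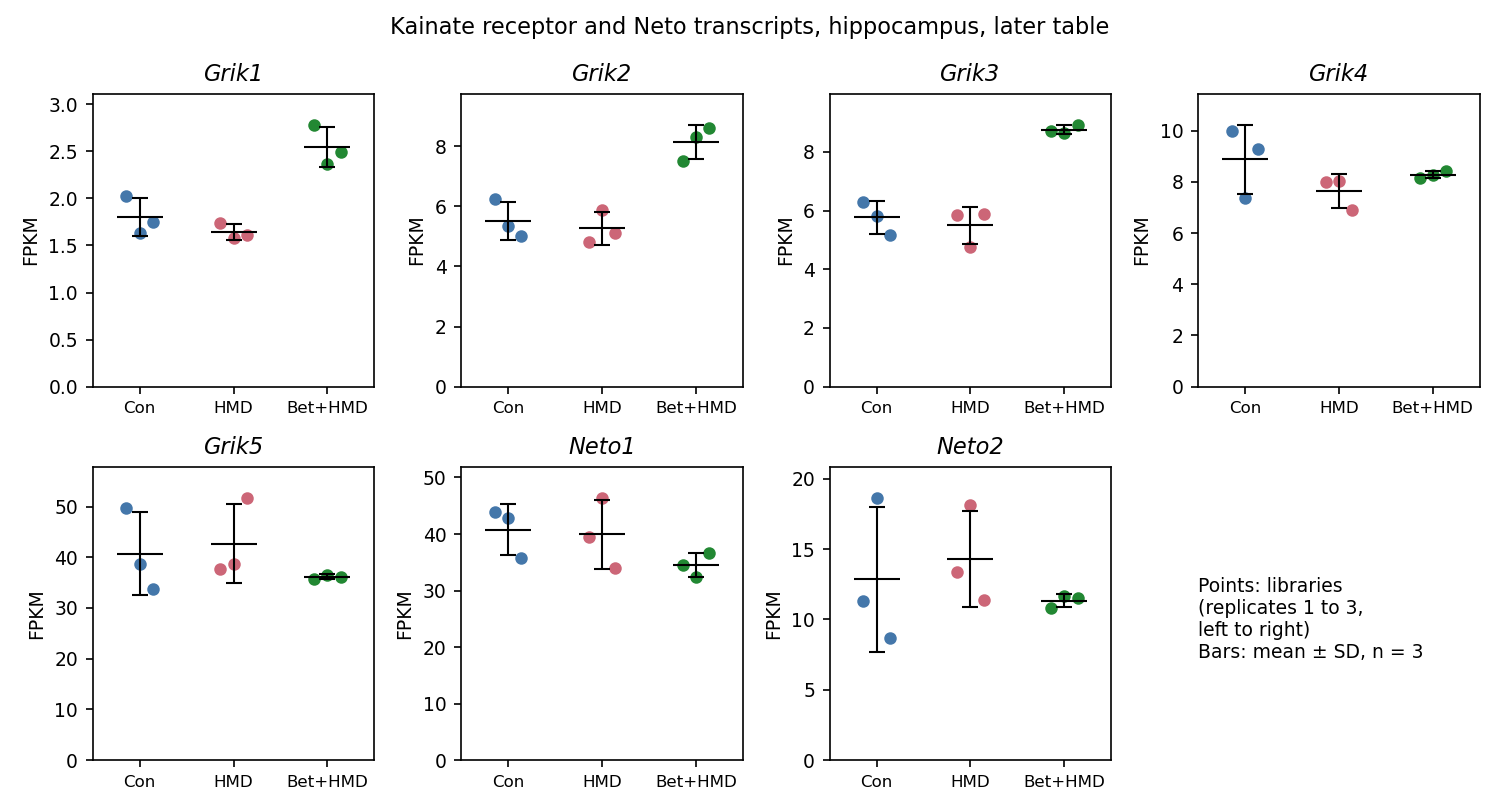
FPKM of the 7 members (vertical axes, from 0) in the 9 libraries of the later table by group (horizontal axes). Points are libraries, and bars are the mean ± SD of 3. Grik1, Grik2 and Grik3 sit higher in every Bet+HMD library than in any Con or HMD library, and the other 4 genes overlap between Bet+HMD and Con.

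The first comparison asked whether the methionine diet was accompanied by other levels of these transcripts. None of the 7 members differed between HMD and Con: 0 had a limma adjusted p under 0.05, 0 had an unadjusted p under 0.05 and 0 had replicates that did not overlap, and limma voom on the recovered reads also called 0, with 0 at an unadjusted p under 0.05. Over all genes tested the share called was 0% and the share whose replicates did not overlap was 9.37%. The log2 fold changes of the members ran from -0.17 for Grik4 to 0.18 for Neto2, with a median of -0.05 beside -0.0038 for all genes.

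Among the subunits that form channels by themselves, Grik1 was at 1.75 ± 0.193 FPKM in Con and 1.59 ± 0.106 FPKM in HMD in the earlier table (SD, n = 3). Grik2 was at 5.44 ± 0.606 FPKM in Con and 5.15 ± 0.559 FPKM in HMD, and Grik3 was at 5.66 ± 0.599 and 5.43 ± 0.655 FPKM. The 3 log2 fold changes lay between -0.08 and -0.05, each with a limma adjusted p of 0.98. The 95% interval of Grik2, the best covered of the 3, was -0.35 to 0.22 on the log2 scale with 3 libraries a group. A change inside that interval is compatible with these values, and the interval is not a limit of detection.

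Grik4, which encodes the high-affinity subunit GluK4, was at 9.75, 7.31 and 9.05 FPKM in Con replicates 1 to 3 and at 7.85, 8.23 and 6.73 FPKM in HMD. The lowest Con library lay inside the HMD range, and the log2 fold change was -0.17 (95% interval -0.48 to 0.14, limma adjusted p 0.98). Grik5 was at 49.0, 38.6 and 32.8 FPKM in Con and at 37.5, 38.5 and 51.1 FPKM in HMD. The highest and the lowest values of this gene fell in different replicates of the 2 groups, so the groups overlapped almost entirely. Its log2 fold change was 0.08 (95% interval -0.35 to 0.51).

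Of the auxiliary genes, Neto1 was at 43.1, 42.0 and 34.8 FPKM in Con and 38.8, 44.3 and 33.3 FPKM in HMD, with overlap. Neto2 was the most variable member, at 11.1, 18.3 and 8.43 FPKM in Con and at 13.1, 17.6 and 11 FPKM in HMD. Replicate 2 was high in both groups, and the coefficient of variation was 40.4% in Con and 24.2% in HMD. Its log2 fold change of 0.18 had a 95% interval of -0.46 to 0.81 (limma adjusted p 0.98). The thalamus marker list, which shows tissue beside the hippocampus, had a summed level of 21.8 to 77.1 FPKM in HMD and 12.5 to 16.1 FPKM in Con in the same libraries. Of its 5 markers tested, 4 did not overlap between the groups, beside 9.37% of all genes, and 0 were called. None of these markers was at 0, and their part in the members' values was not tested.

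The second comparison asked how the transcripts stood after betaine. Grik1, Grik2 and Grik3, the genes of the subunits that form channels by themselves, were higher in Bet+HMD than in HMD, by 54.9%, 54.5% and 59.3% of the HMD mean. The genes of the high-affinity subunits and both Neto genes did not pass the test. In all, 3 of the 7 members had a limma adjusted p under 0.05, all of them higher, and 0 reached an absolute log2 fold change of 1. In this comparison 48.3% of all genes tested were called, 22.8% higher and 25.5% lower, so the number of members called was no more than the share over all genes. Replicates of the groups were apart, without overlap, at 5 of 7 members and at 60.1% of all genes. The median log2 fold change of the members was 0.10, beside -0.03 for all genes.

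Grik3 encodes GluK3, which gives channels of low glutamate affinity. It was at 5.86, 4.75 and 5.87 FPKM in HMD and at 8.71, 8.64 and 8.92 FPKM in Bet+HMD, replicates 1 to 3. All Bet+HMD libraries lay above all HMD libraries and close to each other. With a log2 fold change of 0.59 (SE 0.0909, limma adjusted p 0.00188), it stood higher than that of 86.4% of the genes tested.

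Grik2 encodes GluK2, the most studied subunit of the mossy fibre synapse. It was at 4.83, 5.87 and 5.10 FPKM in HMD and at 7.50, 8.30 and 8.61 FPKM in Bet+HMD, without overlap. Its log2 fold change of 0.55 (SE 0.0922) had a limma adjusted p of 0.00282. It stood at the 84.9th percentile of all genes.

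Grik1 encodes GluK1, a subunit of many interneurons. It was at 1.74, 1.58 and 1.61 FPKM in HMD and at 2.78, 2.37 and 2.49 FPKM in Bet+HMD, from 163 to 203 reads a library against 282 to 325. The groups did not overlap, and the difference passed the test (log2 fold change 0.42, SE 0.0967, limma adjusted p 0.00998). Adding 1 to FPKM damps the fold change of a gene this low. On the recovered reads limma voom gave 0.71 (adjusted p 0.00149), but with other library sizes and another filter. The median of all genes was 0.11 there, beside -0.03 in the main fit, so the 2 values differ by more than the added 1. This call was lost under quantile normalization (log2 fold change 0.22, adjusted p 0.0953) and without Bet+HMD replicate 1 (0.38, adjusted p 0.0503). The summed level of the interneuron markers went the other way, at 216 to 258 FPKM in Bet+HMD and 295 to 388 FPKM in HMD. Of these 8 markers 4 were lower in Bet+HMD (Gad1, Gad2, Slc32a1 and Pvalb), where 25.5% of all genes were lower. Of the same markers 0 were higher and none was at 0, and their part in the level of Grik1 was not tested.

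The high-affinity subunit genes did not pass. Grik4 was at 8.01, 8.04 and 6.89 FPKM in HMD and at 8.15, 8.25 and 8.42 FPKM in Bet+HMD. The Bet+HMD values lay just above the HMD values, and the log2 fold change was 0.10 (95% interval -0.09 to 0.29, limma adjusted p 0.322). Grik5 was at 37.6, 38.7 and 51.6 FPKM in HMD and at 35.7, 36.6 and 36.2 FPKM in Bet+HMD. These groups did not overlap either, with Bet+HMD below, but HMD replicate 3 stood far above the other HMD libraries. The log2 fold change was -0.22 (95% interval -0.50 to 0.07, limma adjusted p 0.179).

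The Neto genes had negative log2 fold changes that did not pass. Neto1, the auxiliary protein of the mossy fibre synapse, was at 39.5, 46.3 and 34.0 FPKM in HMD and at 34.5, 32.4 and 36.6 FPKM in Bet+HMD. The log2 fold change was -0.20 (95% interval -0.47 to 0.08, limma adjusted p 0.205). Neto2 was at 13.4, 18.1 and 11.4 FPKM in HMD and at 10.8, 11.7 and 11.5 FPKM in Bet+HMD, a log2 fold change of -0.29 (95% interval -0.64 to 0.07, limma adjusted p 0.16). Both groups overlapped at both genes. Without HMD replicate 3, Neto1 (-0.30, limma adjusted p 0.04) and Neto2 (-0.43, limma adjusted p 0.036) passed as lower. The number of members called was then 5 of 7, beside 6731 of 13767 genes.

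**Figure D2:**
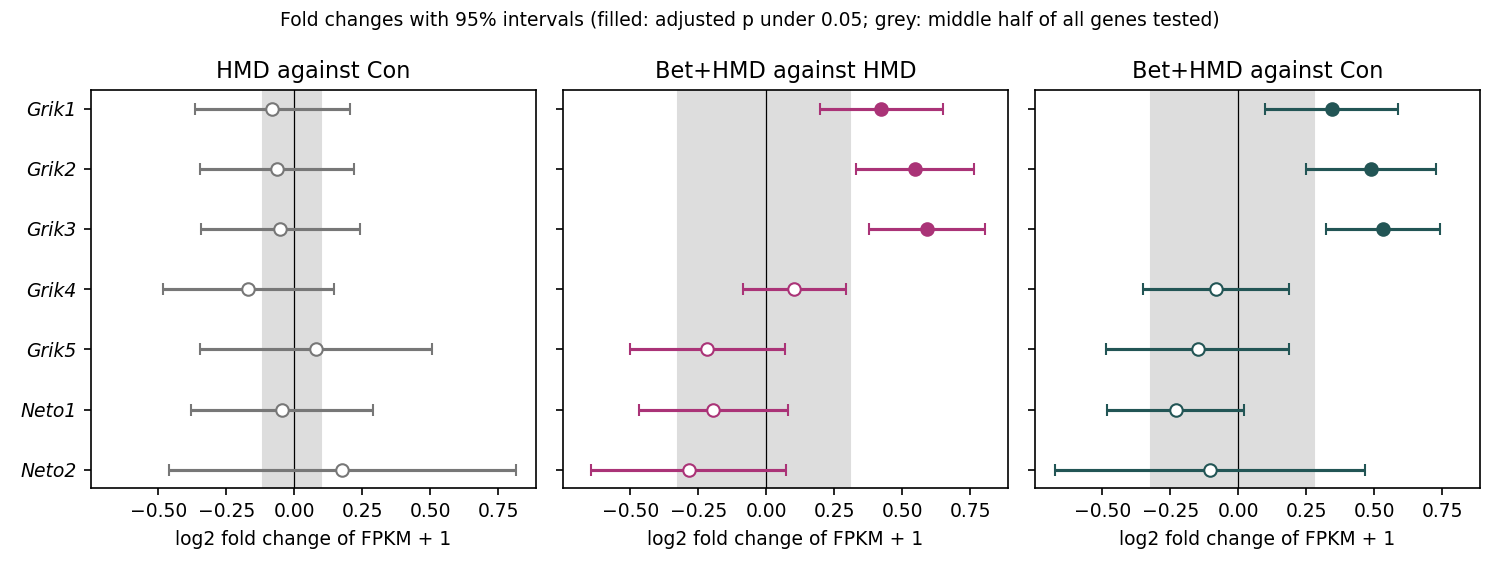
Log2 fold change of FPKM + 1 (horizontal axes) of the 7 members in the 3 comparisons, with 95% intervals. Filled points had a limma adjusted p under 0.05, and the grey band runs between the quartiles of all genes tested. Grik1, Grik2 and Grik3 lie to the right of the band in both comparisons of Bet+HMD, at 0.34 to 0.59, and all intervals of HMD against Con cross 0.

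The scaling of the libraries bears on these values because the FPKM sums differed between groups. The median of all genes was -0.03 on the log2 scale with FPKM as deposited and 0.16 after rescaling to TPM, and the share of higher genes among those called moved with it, from 3118 of 6607 genes to 4496 of 6470. Under TPM the log2 fold changes were 0.73 for Grik1, 0.80 for Grik2 and 0.85 for Grik3, still above that median, and Grik4 passed as well (0.31, limma adjusted p 0.0253). Grik5 was then at -0.02, Neto1 at 0.00 and Neto2 at -0.10, all below the median. Under quantile normalization Grik5 (0.03) and Neto1 (0.05) took the opposite sign. A direction for these 2 genes therefore depended on the scaling, while Grik1, Grik2 and Grik3 stayed positive under each scaling tried.

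**Figure D3:**
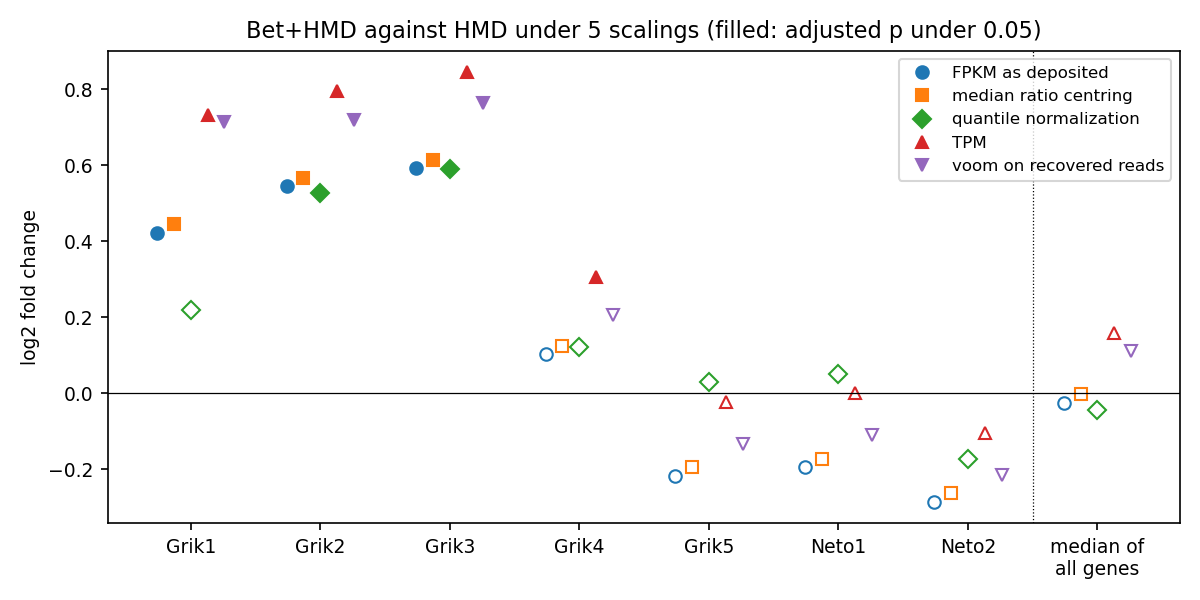
Log2 fold change (vertical axis) of Bet+HMD against HMD for the 7 members and the median of all genes (horizontal axis) under 5 scalings. Filled symbols had an adjusted p under 0.05. Grik2 and Grik3 are filled under each scaling, Grik1 is open under quantile normalization, and Grik4 is filled under TPM alone.

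The third comparison set Bet+HMD against Con, with the same Bet+HMD libraries, so it is not independent of the second. Again Grik1, Grik2 and Grik3 were higher, by 41.6%, 47.2% and 51.8% of the Con mean, and the other 4 members did not pass. The share of all genes called was 39.7%, with 19.4% higher and 20.4% lower, and 3 of 7 members called is close to that share. Replicates were apart at 3 of 7 members and at 55.1% of all genes. The median log2 fold change of the members was -0.08 (0.13 under TPM and 0.12 under quantile normalization), beside -0.04 for all genes (0.17 under TPM).

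Grik3 was at 6.31, 5.82 and 5.17 FPKM in Con, below its 3 Bet+HMD values, with a log2 fold change of 0.53 (SE 0.0881, limma adjusted p 0.00408). Grik2 was at 6.23, 5.35 and 5.0 FPKM in Con, with a log2 fold change of 0.49 (SE 0.10, limma adjusted p 0.00931). Grik1 was at 2.02, 1.63 and 1.75 FPKM in Con, with a log2 fold change of 0.34 (SE 0.103, limma adjusted p 0.0363). At all 3 genes the highest Con library lay below the lowest Bet+HMD library. The call of Grik1 was fragile, since it was lost under 3 of the other settings and without any 1 of 5 libraries, as given in the closing section.

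Grik4 was at 9.97, 7.38 and 9.29 FPKM in Con, and the 3 Bet+HMD values lay between these (log2 fold change -0.08, 95% interval -0.35 to 0.19, limma adjusted p 0.598). Grik5 was at 49.8, 38.7 and 33.7 FPKM in Con, again on both sides of the Bet+HMD values (-0.15, 95% interval -0.49 to 0.19, adjusted p 0.435). Neto1 was at 43.9, 42.8 and 35.7 FPKM in Con, and Bet+HMD replicate 3 lay above the lowest of these. Its log2 fold change was -0.23 (95% interval -0.48 to 0.02, limma adjusted p 0.129), and without Con replicate 3 it passed as lower (-0.32, adjusted p 0.0184). Neto2 was at 11.3, 18.6 and 8.67 FPKM in Con, and its log2 fold change of -0.10 had a 95% interval of -0.67 to 0.47. The wide interval came with Con libraries that spread from 8.67 to 18.6 FPKM, while those of Bet+HMD stayed within 10.8 to 11.7 FPKM.

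The composition of the subunit pool can be read within each library, where the scaling of the library has no part. The shares are sums over chosen genes, rest on the lengths of the gene models and are given as a description. Grik1, Grik2 and Grik3 together held 19.6%, 21.7% and 21.7% of the summed Grik FPKM in Con, 21.4%, 20.7% and 17.7% in HMD, and 30.2%, 30.1% and 31.0% in Bet+HMD. The Bet+HMD libraries lay above all the others. Grik5 held 67.0%, 65.7% and 61.4% in Con, 64.8%, 65.6% and 72.6% in HMD, and 56.8%, 57.0% and 56.0% in Bet+HMD, below all the others. The summed level of the 5 subunit genes overlapped between the groups, at 62.7 ± 10.3 FPKM in Con, 62.7 ± 7.29 FPKM in HMD and 63.9 ± 0.923 FPKM in Bet+HMD (SD, n = 3). In Bet+HMD the summed level of Grik1 to Grik3 was 19.4 ± 0.528 FPKM, against 13.1 ± 1.34 FPKM in Con and 12.4 ± 0.192 FPKM in HMD, and that of Grik4 and Grik5 was 44.4 ± 0.514 FPKM, against 49.6 ± 8.93 and 50.3 ± 7.15 FPKM.

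**Figure D4:**
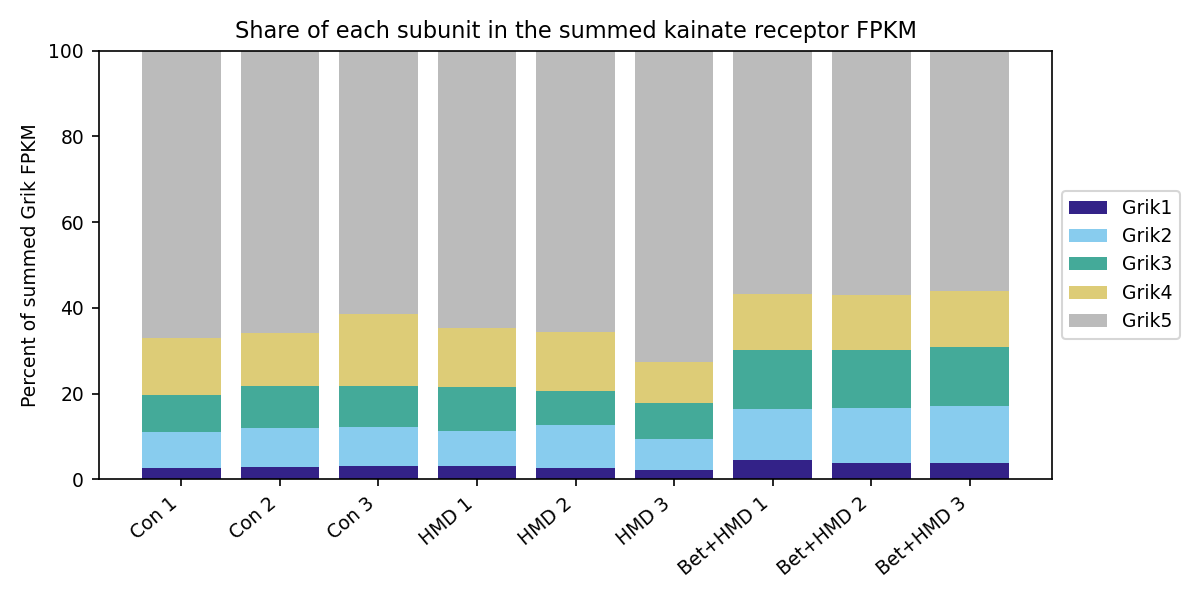
Percent of the summed Grik FPKM held by each of the 5 subunit genes (vertical axis, stacked to 100%) in the 9 libraries of the later table (horizontal axis). Grik5 holds 61.4% to 72.6% in the Con and HMD libraries and 56.0% to 57.0% in the Bet+HMD libraries, where the parts of Grik2 and Grik3 are wider.

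The 2 high-affinity subunits kept overlapping proportions: Grik4 was at 22.2 ± 4.65% of Grik5 in Con, 18.5 ± 4.46% in HMD and 22.9 ± 0.365% in Bet+HMD. Neto2 held 23.4 ± 5.98% of the summed Neto FPKM in Con, 26.2 ± 1.71% in HMD and 24.8 ± 1.55% in Bet+HMD. The summed Neto FPKM per summed Grik FPKM was 0.742, 1.04 and 0.807 in Con, 0.911, 1.09 and 0.638 in HMD, and 0.721, 0.688 and 0.745 in Bet+HMD. The Bet+HMD values overlapped those of HMD at its lowest library and those of Con at its lowest library. Across libraries of a group, these ratios varied least in Bet+HMD, and so did the levels of 6 members, where the coefficient of variation was 1.22% for Grik5, 1.66% for Grik4, 1.70% for Grik3, 4.29% for Neto2, 6.15% for Neto1 and 7.05% for Grik2. The same 6 genes varied by 8.58% to 24.3% among the HMD libraries and by 9.88% to 40.1% among those of Con. Grik1 did not follow this order, with 5.03% in HMD, 8.33% in Bet+HMD and 10.9% in Con.

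Over the 9 libraries of the later table, the levels of Grik1, Grik2 and Grik3 moved together, with Pearson's r of log2(FPKM + 1) of 0.934 for Grik1 with Grik3, 0.878 for Grik2 with Grik3 and 0.873 for Grik1 with Grik2. Neto1 and Neto2 had r of 0.681, and Grik4 with Grik5 had r of -0.141. The libraries share their groups, so these coefficients largely restate the difference of Bet+HMD and carry no p. Among 13464 genes the patterns most like those of the members, by the same measure, were Radil and Gm27209 (annotated as antisense) for Grik1 with r of 0.987 and 0.984, Slf2 and Tnik for Grik2 with 0.991 and 0.988, and Dvl3 and Bicra for Grik3 with 0.996 and 0.992. They were Cwc25 and Slc26a4 for Grik4 with 0.941 and 0.932, Ubl7 and Cdk5r2 for Grik5 with 0.957 and 0.955, Kcnq5 and Nbea for Neto1 with 0.984 and 0.969, and Kantr and Trpc1 for Neto2 with 0.977 and 0.973. Sequence composition and length differed among the members. The longest transcript held 47.9% G and C in Grik1, 37.9% in Grik2, 54.2% in Grik3 and 52.2% in Grik4. It held 61.7% in Grik5, 39.6% in Neto1 and 36.5% in Neto2. Grik2, Grik3 and Grik1, the 3 genes that were higher, had the longest gene models of the members, with 13246, 8973 and 6721 bases. The others held 6129 bases in Neto2, 5962 in Grik4, 5168 in Grik5 and 3531 in Neto1. Across all genes tested, Spearman's rho of the log2 fold change of Bet+HMD against HMD was -0.008 with GC content, 0.022 with gene span and 0.122 with the length of the gene model, and against Con it was -0.052, 0.096 and 0.205. Genes are not independent replicates, and the part of length in the members' values was not tested.

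A list of 26 genes whose products supply, organize, anchor or modify kainate receptors was examined beside the members, of which 25 were in the tables and Klhl17 was not analysed here. In HMD against Con 0 of these 25 had a limma adjusted p under 0.05, and 2 had an unadjusted p under 0.05, by limma and by limma voom on the recovered reads. The first of them, Slc17a6, which encodes the vesicular glutamate transporter of thalamic terminals, was at 3.00, 5.26 and 3.68 FPKM in Con and 26.7, 7.25 and 10.1 FPKM in HMD, a log2 fold change of 1.48 with an adjusted p of 0.906. This gene is itself 1 of the thalamus markers. The other was Grip1 (-0.33, adjusted p 0.98), and both are named because there were 2. The median log2 fold change of the list was -0.02.

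In Bet+HMD against HMD, 8 of 24 partner genes tested were called, 3 higher and 5 lower. Over all genes tested 48.3% were called, 22.8% higher and 25.5% lower, so the number of partner genes called was no more than that share. The median log2 fold change of the list was -0.01 (0.18 under TPM), beside -0.03 for all genes (0.16 under TPM). The balance of directions moved with the scaling. Under TPM 7 of 24 were higher and 4 lower, beside 4496 higher and 1974 lower among 13672 genes. Under quantile normalization 7 were again higher and 4 lower, beside 3041 and 3419 of all genes. On the recovered reads limma voom called 6 of 25 higher and 5 lower, beside 4861 and 2964 of 16846 genes. The scaffold genes held both directions. Sdcbp, which encodes syntenin, was at 42.2, 50.8 and 42.0 FPKM in HMD and at 24.4, 22.7 and 24.3 FPKM in Bet+HMD, a log2 fold change of -0.89 (SE 0.0917, limma adjusted p 0.000374). Dlg1, which encodes the scaffold SAP97, was higher, with 10.3, 10.3 and 11.2 FPKM in HMD and 14.3, 14.0 and 14.5 FPKM in Bet+HMD (log2 fold change 0.40, limma adjusted p 0.00284). Grip1, a PDZ-domain scaffold, was higher as well (0.34, limma adjusted p 0.0282), a call that was lost in 8 of the other settings and libraries left out. The other scaffold genes, Dlg3, Dlg4, Pick1 and Cask, did not pass.

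Of the synaptic organizers 2 of 5 were lower and 0 higher, where 25.5% of all genes were lower and 22.8% higher. C1ql3, a secreted protein of the mossy fibre synapse, was at 27.8, 41.4 and 27.8 FPKM in HMD and at 16.0, 18.1 and 22.5 FPKM in Bet+HMD (log2 fold change -0.74, limma adjusted p 0.0136, and 0.0505 without Bet+HMD replicate 1). Ctnnb1, which encodes the adhesion protein beta-catenin, was at 86.7, 82.7 and 79.6 FPKM in HMD and at 56.0, 55.6 and 55.4 FPKM in Bet+HMD (-0.57, limma adjusted p 0.000519). Neither gene's groups overlapped. Of the 2 RNA editing enzymes Adar was higher, at 12.5, 12.5 and 12.2 FPKM in HMD and 17.7, 18.8 and 18.0 FPKM in Bet+HMD (0.51, limma adjusted p 0.000761). Adarb1, whose product edits Grik1 and Grik2 transcripts at the pore site, did not pass (-0.17, adjusted p 0.415). Of the 3 vesicular supply genes tested Slc17a7, the vesicular glutamate transporter of hippocampal pyramidal cells, was lower, with a log2 fold change of -0.42 (limma adjusted p 0.0104).

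In Bet+HMD against Con, 8 of 25 partner genes were called, again 3 higher and 5 lower, with a median of -0.04 (0.18 under TPM). Over all genes tested 39.7% were called, 19.4% higher and 20.4% lower, so this number of partner genes was no more than that share in the main fit. Under quantile normalization the number was above the share, as given in the closing section. Sdcbp (-0.87), Ctnnb1 (-0.62) and Slc17a7 (-0.43) were lower without overlap of replicates, and C1ql3 was called lower with overlap between the groups. The call of Slc17a7 was lost under TPM (limma adjusted p 0.124), under the replicate block (0.0523) and without Bet+HMD replicate 1, 2 or 3 (0.0518 to 0.0622), and its sign turned under quantile normalization, where it stood at 0.02. Ctnnb1 also missed the threshold under quantile normalization (-0.22, adjusted p 0.0557). Adar (0.41) and Dlg1 (0.31) were called higher, but Adar lost its call without Bet+HMD replicate 1, 2 or 3 (limma adjusted p 0.0516 to 0.0684) and under the replicate block (0.0538). Dlg1 lost it without those libraries or Con replicate 1 (0.055 to 0.0982) and under the replicate block (0.0918). The largest rise was that of Slc17a6, from 2.99, 5.38 and 3.78 FPKM in Con to 8.92, 8.91 and 8.38 FPKM in Bet+HMD (log2 fold change 0.97, limma adjusted p 0.0046, and 0.0648 with all 3 groups in 1 fit). The thalamus list, to which it belongs, had a summed level of 12.7 to 16.3 FPKM in Con and 21.4 to 22.4 FPKM in Bet+HMD with 1 of 3 markers tested called higher, which was Slc17a6, and none at 0. The part of such tissue in its level was not tested.

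**Figure D5:**
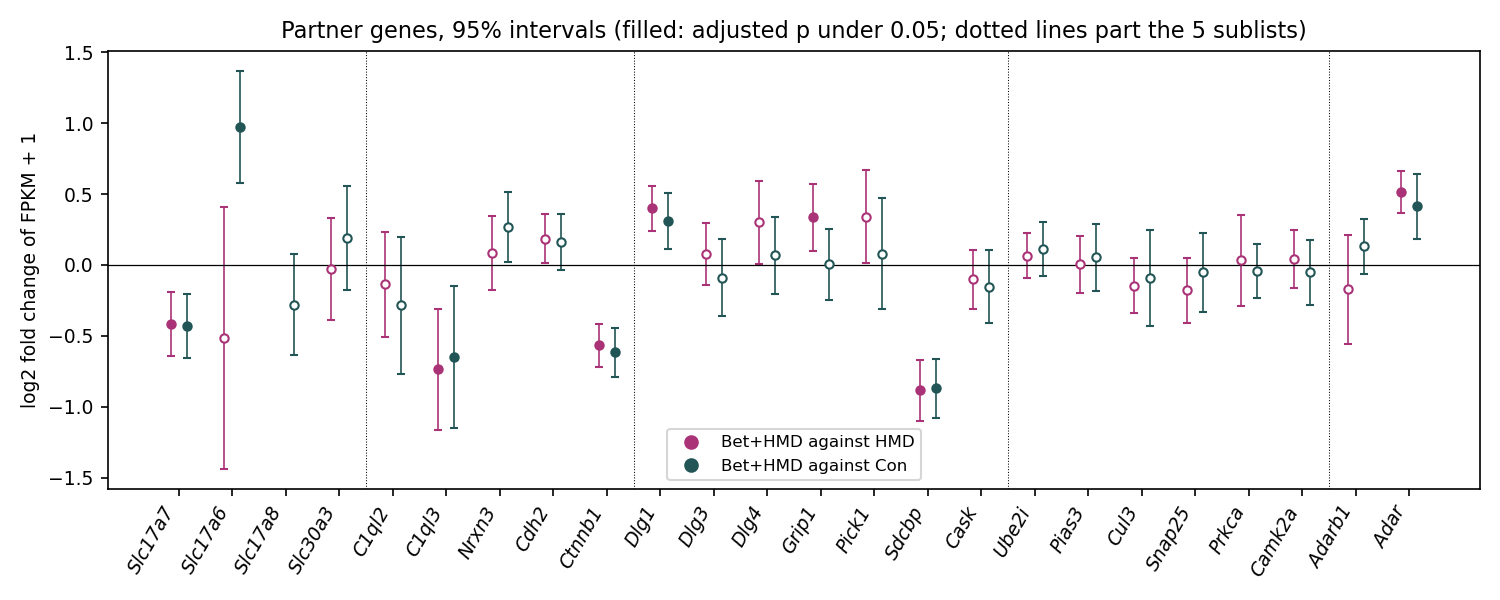
Log2 fold change of FPKM + 1 (vertical axis) with 95% intervals for 24 partner genes (horizontal axis) in both comparisons of Bet+HMD. Filled points had a limma adjusted p under 0.05, and dotted lines part the sublists (vesicular supply, synaptic organizers, scaffolds, modification and trafficking, RNA editing). Sdcbp lies lowest, at -0.89 and -0.87, and Slc17a6 against Con lies highest, at 0.97.

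The other ionotropic glutamate receptor genes, 4 of the AMPA, 7 of the NMDA and 2 of the delta type, give the nearest comparison by family. Of these 13 genes 11 were tested in each comparison. In HMD against Con 0 passed by limma, with 0 at an unadjusted p under 0.05, and limma voom on the recovered reads called 0, with 1 at an unadjusted p under 0.05. In Bet+HMD against HMD 4 were higher and 0 lower, 3 of them of the AMPA type, with a median log2 fold change of 0.26 (0.46 under TPM), while 22.8% of all genes were higher. This count moved with single libraries and the unit, and was 1, 2 and 0 without Bet+HMD replicate 1, 2 and 3. Of all genes, 2271 of 13545, 2296 of 13556 and 2317 of 13549 were higher in those fits. The count was 6 without HMD replicate 2, beside 3342 of 13798 genes, and 6 under TPM, beside 4496 of 13672 genes. In Bet+HMD against Con 4 were higher and 1 lower, with a median of 0.20 (0.46 under TPM), while 19.4% of all genes were higher and 20.4% lower. The number called fell from 5 to 2, 1 and 1 without Bet+HMD replicate 1, 2 and 3. Of all genes, 3424 of 13538, 3347 of 13524 and 3302 of 13548 were called in those fits. The number was 3 without Con replicate 1, beside 4654 of 13794 genes, and 1 under the replicate block, beside 3924 of 13643 genes. Under TPM 6 were higher and 0 lower, beside 3980 higher and 1432 lower among 13643 genes. No difference between the families was tested.

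The other marker lists were compared between Bet+HMD and HMD too, where 48.3% of all genes were called. The CA3 list had 1 of 4 markers lower (Bok), and its summed level did not overlap, at 40.8 to 42.3 FPKM in Bet+HMD against 54.4 to 73.5 FPKM in HMD and 62.1 to 63.8 FPKM in Con. The astrocyte list had 1 of 4 lower, at 175 to 177 FPKM against 201 to 221 FPKM in HMD, while the oligodendrocyte precursor list had 1 of 4 higher and 2 lower, with a summed level of 49.9 to 55.4 FPKM in Bet+HMD and 62.0 to 84.5 FPKM in HMD. The CA1 list had 1 of 5 higher and 1 lower, the dentate list 0 of 5 called, the neuron list 1 of 4 higher and 1 lower, and the striatum list 1 of 6 higher and 2 lower. The thalamus list had 1 of 5 lower, at 21.4 to 22.4 FPKM against 22.6 to 78.1 FPKM, and the medial habenula list 0 of 2 called, at 1.5 to 1.7 FPKM against 2.65 to 16.8 FPKM. None of these markers was at 0 in any library. The part of these differences in the levels of the receptor genes was not tested.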

How the data were processed

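Hippocampal total RNA in 9 mouse samples (3 Con, 3 HMD, 3 Bet+HMD, grouped by their titles) was sequenced. Per the labels, the authors aligned the reads with HISAT2 2.1.0 to mm10, counted them with featureCounts 1.5.0-p3, and deposited FPKM values per gene beside the gene length. Columns with the prefix COL were read as Con since HMD and Bet are the only other prefixes, so this match is inferred. Multiplying FPKM by gene length and library size gave whole reads, within 0.01 reads, for 100% of the values. The library size behind FPKM was 0.953 to 1.05 times the sum of reads. The 6 libraries in both tables held 0.312% to 5.49% fewer reads in the later one, so tests were made within a table.

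Tests were made with limma 3.58.1 in R 4.3.3 (moderated linear models whose prior variance follows mean intensity) on log2(FPKM + 1) of the 2 groups compared, over genes with a mean of at least 1 FPKM. Two-sided p-values were given a Benjamini-Hochberg adjustment across every gene in the fit, with a threshold of 0.05, also combined with an absolute log2 fold change of 1. Intervals are 95% intervals of limma. The script was tested on simulated data. The deposited unit is FPKM, so limma was the main test in place of the count test of the study's methods, and the recovered reads were tested with limma voom as an alternative.

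The members, the partner, receptor and marker lists were chosen with earlier results of these data known. Named genes were the 7 members, the partner genes that passed without overlap of replicates (at most 4 rising and 4 falling, by size), and the 2 genes most like each member by Pearson's r. Other genes are named only to spell out a count of 5 or fewer, and were chosen after their values were seen. The values of 1 partner gene are not reported here, though it is in the counts. Alternatives were a pseudocount of 0.1, no filter, a filter at 5 FPKM, TPM, median ratio centring, quantile normalization, no trend, all 3 groups in 1 fit, limma voom on recovered reads (mean of at least 10), a replicate block, HMD against Con in the later table, and each library left out in turn. Depth was 16031464 to 18566712 assigned reads per library, and no molecular identifiers are described, so a read is not counted as a molecule.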

Additional observations from a re-analysis of the deposited data

How the results depend on the processing

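In HMD against Con, 0 members and 0 partner genes were called under each alternative tried. In Bet+HMD against HMD, 2 to 4 members were called under the other settings, and 2 (without Bet+HMD replicate 1) to 5 (without HMD replicate 3, with Neto1 and Neto2 added as lower) when 1 library was left out. Under quantile normalization 2 of 7 were called, beside 6460 of 13672 genes, and under TPM 4 of 7, beside 6470 of 13672. With a filter at 5 FPKM 2 of 6 were called, beside 4166 of 7549 genes. The shares of all genes were 4847 of 13545 without Bet+HMD replicate 1 and 6731 of 13767 without HMD replicate 3. Grik2 and Grik3 passed as higher in every alternative of both Bet+HMD comparisons. Grik1 against Con lost its call with no filter (adjusted p 0.0808), under quantile normalization (0.262), under the replicate block (0.0797), and without Con replicate 2 or 3 or any Bet+HMD replicate (0.0583 to 0.136), and a filter at 5 FPKM left it untested. Of the partner genes in Bet+HMD against Con, 13 of 25 were called under quantile normalization, 10 higher and 3 lower. Over all genes 5296 of 13643 were called there, 2620 higher and 2676 lower, so the partner number was above that share. Under the replicate block 4 were called, beside 3924 of 13643 genes. The number was 4 without Bet+HMD replicate 1, 2 or 3, beside 3424 of 13538, 3347 of 13524 and 3302 of 13548 genes. It was 9 without Con replicate 2 or 3, beside 5650 of 13777 and 6269 of 13736 genes. The numbers of the replicates were not used as pairs in the main fits. In HMD against Con the deviations of same-numbered libraries from the group means correlated across genes by -0.055, 0.346 and 0.319 for replicates 1 to 3. Replicates 2 and 3 thus shared part of their deviations there, and a batch shared by number was not tested. In the Bet+HMD comparisons these correlations were -0.176 to 0.017. With the replicate block the members called were 0, 3 and 2 in the 3 comparisons, beside 0 of 12989, 5615 of 13672 and 3924 of 13643 genes. The cause of these changes was not tested.

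Signs were followed for the members and for the partner genes named by size in a comparison. Among these they turned only at members that had a small value or did not pass, and at Slc17a7 against Con. Over the whole partner list more signs turned. In Bet+HMD against HMD 12 of 24 were negative in the main fit and 6 under TPM, and against Con 13 of 25 and 7. Under quantile normalization the log2 fold changes against HMD were 0.0295 for Grik5 and 0.0501 for Neto1, and against Con 0.12 for Grik5, 0.0331 for Neto1, 0.0029 for Neto2 and 0.0212 for Slc17a7. Under TPM those against Con were 0.13 for Grik4, 0.0679 for Grik5 and 0.11 for Neto2. With 1 library left out, HMD against Con ran from -0.14 to 0.007 for Grik2, from -0.12 to 0.0353 for Grik3, from -0.06 to 0.23 for Grik5, from -0.14 to 0.057 for Neto1 and from -0.0567 to 0.46 for Neto2. Bet+HMD against Con ran from -0.27 to 0.0008 for Grik5 and from -0.33 to 0.18 for Neto2. The share of higher genes among those called in Bet+HMD against HMD was 3118 of 6607 with FPKM and 4496 of 6470 with TPM. Depth limits Grik1 most, with 163 to 325 reads a library.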
